A study of Mus musculus with 13 samples.

Results

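Plasma exosomes of 8 mice with sepsis were compared with one another, out of 13 mice profiled in all. The 8 were chosen by their titles, which mark cecal ligation and puncture (CLP), an operation in which gut bacteria leak into the abdomen and cause polymicrobial sepsis. The other 5 mice had a sham operation and serve here as a background measured the same way. All 13 were male wild-type C57BL/6J mice sampled 24 hours after surgery. The data were fluorescence intensities of 68 miRNA probes read on FirePlex hydrogel particles after RNA extraction from exosomes pelleted by ultracentrifugation. Each sample was taken as 1 mouse, because the labels number the samples and the study design speaks of mice. CLP and sham mice were not tested against each other, and every test concerns variation among the 8 CLP mice.

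Exosomes are small vesicles that cells release into blood, and the miRNAs they carry come from many tissues at once. Some miRNAs are strongly enriched in 1 cell type. miR-122-5p is made almost wholly by hepatocytes, miR-451a by maturing red cells, miR-223-3p by neutrophils and other myeloid cells, miR-150-5p by mature lymphocytes, miR-126-3p by endothelium, and the miR-200 family with miR-205-5p and miR-203a-3p by epithelia. Sepsis can injure liver, gut, endothelium and blood cells to differing degrees in different animals. In plasma vesicles, a change in the number of vesicles from a cell type and a change in the miRNA per vesicle cannot be told apart.

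Mature sequences were available for 54 of the 68 probes, matched by name to mouse RefSeq entries on GRCm38.p6. The probes carry human miRNA names, and roles below are those known in human and mouse. The following are printed because the covariation among the CLP mice is described below by these cell types and seed families. Capitals mark the seed, bases 2 to 8, through which a miRNA pairs with its targets. The epithelial miRNAs come first. miR-200a-3p (chr4:156054911-156054932, minus strand) and miR-429 (chr4:156053916-156053937, minus strand) are neighbours in 1 cluster but differ at 4 positions, counted from the 5′ end, and do not share a seed.
miR-200a-3p: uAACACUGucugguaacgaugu
miR-429: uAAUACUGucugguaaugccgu
miR-205-5p: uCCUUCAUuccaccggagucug
miR-203a-3p: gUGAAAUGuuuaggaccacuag
The blood-cell and endothelial miRNAs have unrelated seeds. miR-451a lies at chr11:78073186-78073207 (plus strand), miR-142-3p at chr11:87756903-87756925 (plus strand), miR-223-3p at chrX:96242884-96242905 (plus strand) and miR-126-3p at chr2:26591402-26591423 (plus strand).
miR-451a: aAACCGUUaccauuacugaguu
miR-142-3p: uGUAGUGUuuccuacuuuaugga
miR-223-3p: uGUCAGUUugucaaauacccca
miR-126-3p: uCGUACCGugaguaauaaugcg
Members of the let-7, miR-17 and miR-15/16 families share a seed within each family and differ further along. They are shown to let the similarity of their sequences be read beside their covariation.
let-7b-5p: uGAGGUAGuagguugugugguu
let-7e-5p: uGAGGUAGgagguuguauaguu
let-7i-5p: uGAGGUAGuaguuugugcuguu
miR-17-5p: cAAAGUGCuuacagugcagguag
miR-20a-5p: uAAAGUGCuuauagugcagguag
miR-20b-5p: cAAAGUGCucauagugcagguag
miR-93-5p: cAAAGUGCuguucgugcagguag
miR-15a-5p: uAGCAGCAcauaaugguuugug
miR-15b-5p: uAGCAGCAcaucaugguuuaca
miR-16-5p: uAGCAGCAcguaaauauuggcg

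All 68 probes were above 0 in all 8 CLP mice. Summed raw signal ranged from 33043 to 74685 units in CLP mice (median 65195) and from 10598 to 45121 units in sham mice (median 23558). The level of a mouse is given here as the log2 geometric mean of the 60 probes above 0 in all 13 mice. It was 7.26 in CLP mouse 8 and 8.15 to 8.92 in the other 7 CLP mice. CLP mouse 8 stood apart from its group by Dixon's criterion, and its level lay within the sham range of 5.52 to 7.91, so results that rest on it are given with and without it. The authors' second table carries the columns of CLP mouse 6 and CLP mouse 7 exchanged relative to the raw table, so the identity of this pair is unsettled and the raw table's labels are used.

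The composition of the panel was described first, as the share of summed raw signal. Red cell miRNAs led it. miR-16-5p, abundant in red cells and in most other cells, was the brightest probe in 8 of 8 CLP mice, with shares of 7.60% (lowest), 8.69% (median) and 13.2% (highest). Its mean share was 9.60% ± 2.0 (SD, n = 8) in CLP mice and 16.6% ± 3.17 (SD, n = 5) in sham mice. miR-451a came second at 7.37% ± 1.92 in CLP mice and 15.7% ± 5.52 in sham mice, and its CLP shares ran between 4.93% and 11.3%. The highest share of both miRNAs among CLP mice was that of mouse 8, the mouse of lowest level.

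After these, the order was miR-486-5p of red cells (5.64% ± 0.67 in CLP mice, 7.01% ± 0.82 in sham mice), the widely expressed miR-22-3p (5.33% ± 0.89 in CLP, 2.75% ± 1.09 in sham) and myeloid miR-223-3p (5.23% ± 0.63 in CLP, 4.23% ± 1.11 in sham). Lymphocyte miR-150-5p held 4.70% ± 1.22 in CLP mice and 2.36% ± 0.52 in sham mice. The other 4 of the 10 brightest are broadly expressed. miR-29a-3p had 4.08% ± 0.29 in CLP mice, the smallest SD among the 10, and 2.98% ± 0.85 in sham mice. For miR-23a-3p and miR-24-3p, encoded in 1 cluster, the CLP means were 3.55% each, against 3.74% each in sham mice, and let-7b-5p had 3.21% in CLP and 2.51% in sham.

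**Figure D1:**
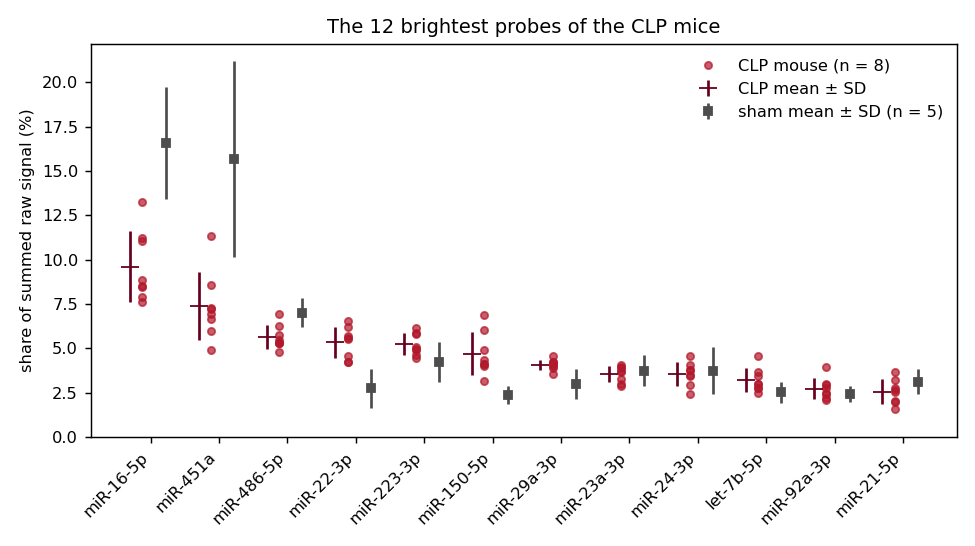
Share of summed raw signal (percent, linear axis from 0) of the 12 brightest probes in each of 8 CLP mice (red points) with the CLP mean and SD to their left, and the mean and SD of 5 sham mice (grey squares) to their right. miR-16-5p leads with a mean of 9.60% in CLP mice and 16.6% in sham mice, and miR-29a-3p varies least among CLP mice.

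The signal was spread over more probes in CLP mice with a higher level. The 10 probes brightest in CLP mice held 52.3% ± 4.01 of the signal in CLP mice (48.9% to 60.4%). The same 10, not all among the brightest 10 of sham mice, held 61.5% ± 2.99 in sham mice (58.1% to 65.4%). The 34 probes dimmest in CLP mice together held 5.08% ± 0.90 in CLP mice and 4.15% ± 0.76 in sham mice. The effective number of probes, the inverse of the summed squared shares, was 25.0 ± 3.49 in CLP mice (18.3 to 28.1) and 14.3 ± 4.07 in sham mice. Among CLP mice the share of the 10 brightest probes fell with level (r = -0.994, exact permutation p = 0.000198, Benjamini-Hochberg adjusted over 3 measures 0.000595; rho = -0.88, exact permutation p = 0.00724). Without mouse 8 that r was -0.985, and without the 2 mice farthest from the median level it was -0.975. The effective number of probes had r = 0.984 with level (exact permutation p = 0.00112, adjusted 0.00167; rho = 0.79, exact permutation p = 0.0279), 0.970 without mouse 8 and 0.954 without the 2 farthest mice. The log2 of miR-451a over miR-23a-3p, commonly used to gauge red cell RNA in plasma, ran from 0.58 to 1.63 in CLP mice and from 1.10 to 3.14 in sham mice. It fell with level too (r = -0.906, exact permutation p = 0.00193, adjusted 0.00193; rho = -0.83, exact permutation p = 0.0154; -0.915 without mouse 8 and -0.922 without the 2 farthest mice). Level is itself an average over 60 of these probes, and the 10 brightest were picked by their share in these same mice. These 3 measures are therefore tied to level by arithmetic, and their p-values cannot show a relation beyond that tie.

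By list of origin, the 5 erythroid probes held 25.7% ± 3.81 of the signal in CLP mice (22.0% to 32.8%) and 42.1% ± 7.22 in sham mice (32.5% to 50.7%). The 4 lymphocyte probes held 6.87% ± 1.32 in CLP mice and 3.79% ± 0.91 in sham mice, and the 2 leukocyte probes 5.43% ± 0.68 in CLP mice and 4.33% ± 1.11 in sham mice. The 2 endothelial probes held 2.81% ± 0.58 in CLP mice (2.10% to 3.78%) and 1.39% ± 0.16 in sham mice (1.19% to 1.62%). The liver share differed 4.92-fold between the CLP mice at its extremes, with 0.689% in mouse 8, a median of 2.29% and 3.39% in mouse 3, against 0.267% to 1.97% in sham mice. The epithelial share differed most, 5.84-fold, from 0.235% to 1.38% in CLP mice (median 0.603%) and from 0.364% to 1.08% in sham mice.

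How far each miRNA varied was then measured after dividing each mouse by its geometric mean. This left 65 probes above the floor of 3.09 scaled units in at least 5 CLP mice. miR-1246, miR-523-5p and miR-376b-3p did not pass, with mean raw signals between 1.5 and 3.83 units. The median SD was 0.36 on the log2 scale in CLP mice and 0.48 in sham mice, and 20 of the 65 probes had the larger SD in CLP mice. The median probe spanned a 2.05-fold range over the 8 CLP mice. A range under 2-fold was found for 28 probes and one over 4-fold for 9.

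Some epithelial, white cell and liver miRNAs were among the most variable, while others of the same lists were not, such as miR-375 (SD 0.29 in CLP mice), miR-223-3p (0.29) and miR-181a-5p (0.20). miR-205-5p, of squamous and other stratified epithelia, had scaled signals of 34.5 (lowest), 90.2 (median) and 299 units (highest) in CLP mice, an SD of 1.10 against 0.43 in sham mice. miR-203a-3p, which drives differentiation of skin epithelium, had 24.6, 50.7 and 157 units, with an SD of 0.94 in CLP and 0.49 in sham. Mouse 2 had the highest value of both. miR-142-3p, found throughout the white cell lineages, spanned a 9.45-fold range, with 25.1 units in mouse 4, a median of 75.7 and 237 units in mouse 8 (SD 0.92 in CLP, 0.46 in sham). That range rested on mice 4 and 8, as the next lowest value was 53.8 units in mouse 7 and the next highest 114 units in mouse 1.

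miR-20b-5p of the miR-17 family varied with an SD of 0.83 in CLP mice and 1.19 in sham mice, and its CLP values were 144 to 630 units with a median of 462. Hepatocyte miR-122-5p had 272 units in mouse 8, a median of 751 and 1275 units in mouse 3 (SD 0.75 in CLP, 0.94 in sham). miR-200a-3p, which keeps epithelial cells from becoming mesenchymal, had 36.8, 85.9 and 158 units (SD 0.68 in CLP, 1.51 in sham). miR-431-3p and neuronal miR-129-5p completed the 8 most variable probes, with SDs of 0.80 and 0.69 in CLP mice and 1.27 and 0.53 in sham mice. They were dim, however, with mean raw signals of 15.5 and 12.9 units, and their lowest scaled values (3.23 and 3.09) lay at or near the floor.

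The least variable probes included several of the brightest. miR-29a-3p, which targets collagen transcripts, had 1669, 1789 and 2293 units (SD 0.15 in CLP, 0.21 in sham), and let-7i-5p had 895, 1057 and 1212 units (SD 0.15 in CLP, 0.49 in sham). miR-24-3p also had an SD of 0.15 in CLP mice and 0.30 in sham mice. The SDs of miR-181b-5p, miR-185-5p, miR-20a-5p, miR-29b-3p and miR-93-5p were 0.16 to 0.19 in CLP mice. Spread was larger among dimmer probes, as the Spearman rho of SD with mean raw signal was -0.40 across the 65 probes, which are not independent. The median SD was 0.28 among the 22 brightest probes and 0.42 among the 21 dimmest. miR-142-3p, miR-205-5p and miR-203a-3p, with mean raw signals of 111 to 162 units, were thus more variable than probes of like or lower brightness such as miR-140-3p (109 units, SD 0.31) and miR-181b-5p (158 units, SD 0.16).

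**Figure D2:**
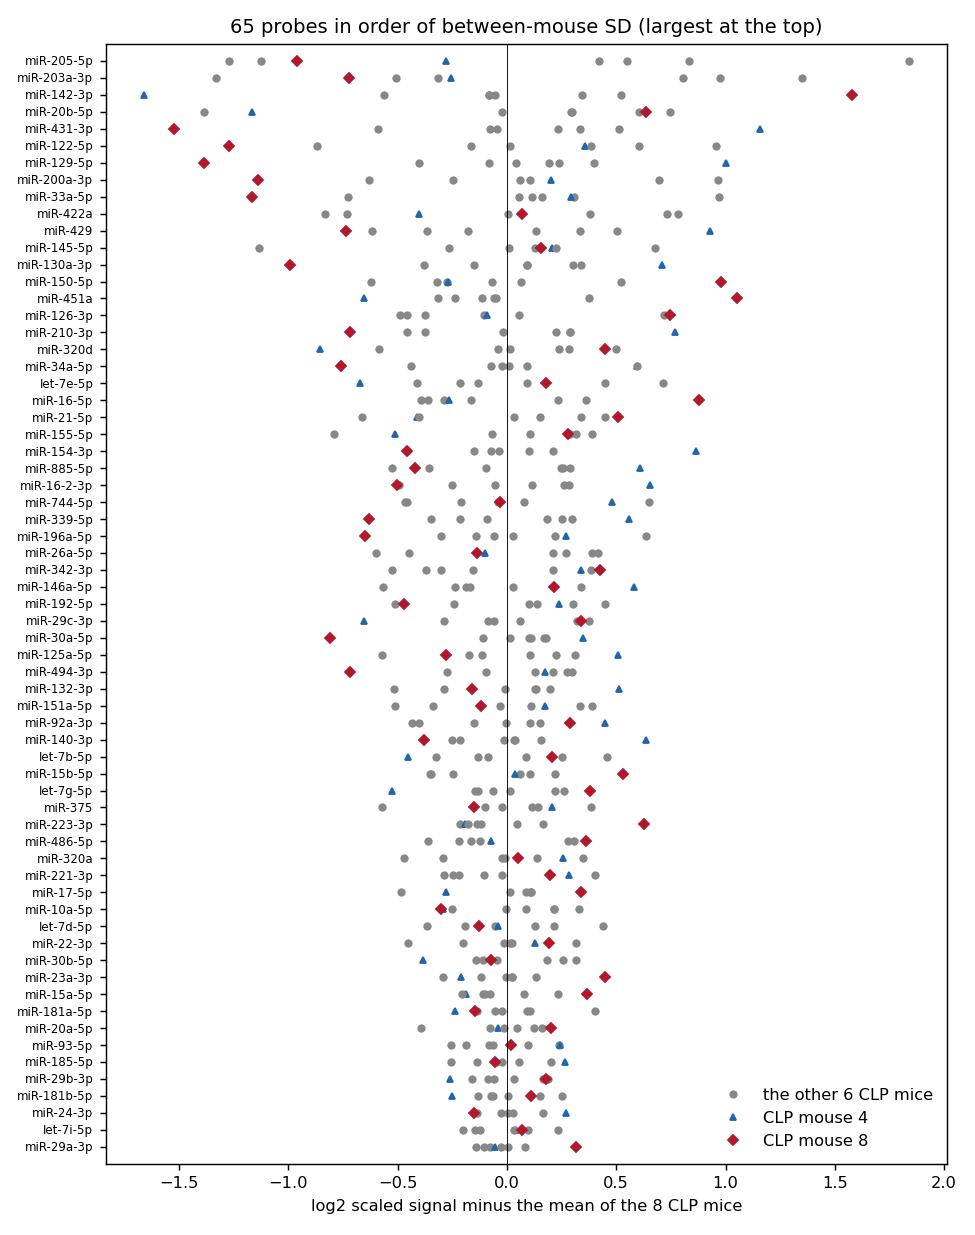
Log2 scaled signal of 65 probes in each CLP mouse minus the mean of the 8 mice, in order of SD with the largest at the top. Blue triangles mark CLP mouse 4, red diamonds CLP mouse 8 and grey circles the other 6 mice. The top rows (miR-205-5p, miR-203a-3p, miR-142-3p) spread over more than 2 log2 units, and the bottom rows (miR-24-3p, let-7i-5p, miR-29a-3p) over less than 0.5.

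A further question was which miRNAs took a larger or smaller part of the panel in mice with more signal. Of 65 probes, 2 fell with level by limma with Benjamini-Hochberg adjustment (3.08%) and 0 rose (0%), whereas 6 lower and 8 higher had an unadjusted limma p under 0.05. Level is an average over 60 of these probes, so slopes are relative to the panel and tend to balance by construction. The adjusted counts were again 2 and 0 when each probe was left out of its own level. The called miRNAs were both of the erythroid list. miR-16-5p had a slope of -0.77 (SE 0.13, limma adjusted p = 0.00995) per log2 unit of level and miR-451a one of -0.82 (SE 0.16, limma adjusted p = 0.0161). In raw units both changed little between mice, since miR-16-5p ran from 4375 to 6286 and miR-451a from 3254 to 5150 units, while the geometric mean ran from 153 to 485 units. The permutation test of r gave the same calls (r = -0.98 for miR-16-5p and -0.93 for miR-451a, exact permutation adjusted p = 0.0387 each). Without mouse 8 the slopes were -0.87 and -0.71, and neither passed (limma adjusted p = 0.468 and 0.827). Neither passed with median scaling, and miR-16-5p did not with the authors' values (slope -0.55). In that fit the authors' exchanged columns of CLP mice 6 and 7 were set by label against the raw table's levels. The slope of -0.55 therefore mixes this mismatch with the change of scaling.

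Blood-cell miRNAs filled most of the negative end of this order. The other steep negative slopes, none past the threshold, were those of miR-142-3p (-1.09, SE 0.40), miR-150-5p (-0.74, SE 0.20) and miR-126-3p (-0.52, SE 0.25). Not all members of the blood-cell lists lay at that end. The slopes were -0.28 for miR-342-3p, -0.13 for miR-92a-3p, -0.04 for miR-155-5p, 0.09 for miR-181a-5p and 0.11 for miR-185-5p. The steepest positive slopes were those of miR-431-3p (0.97, SE 0.34), miR-200a-3p (0.87, SE 0.28), miR-203a-3p (0.86, SE 0.46), miR-129-5p (0.84, SE 0.30) and miR-122-5p (0.79, SE 0.35), with limma adjusted p between 0.101 and 0.277. Without mouse 8 the negative slopes were -0.55 for miR-142-3p, -0.55 for miR-150-5p and -0.29 for miR-126-3p. The positive ones without it were 0.26 for miR-431-3p, 0.68 for miR-200a-3p, 0.14 for miR-122-5p and 0.07 for miR-129-5p, whereas that of miR-203a-3p was 1.51 (SE 0.88).

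**Figure D3:**
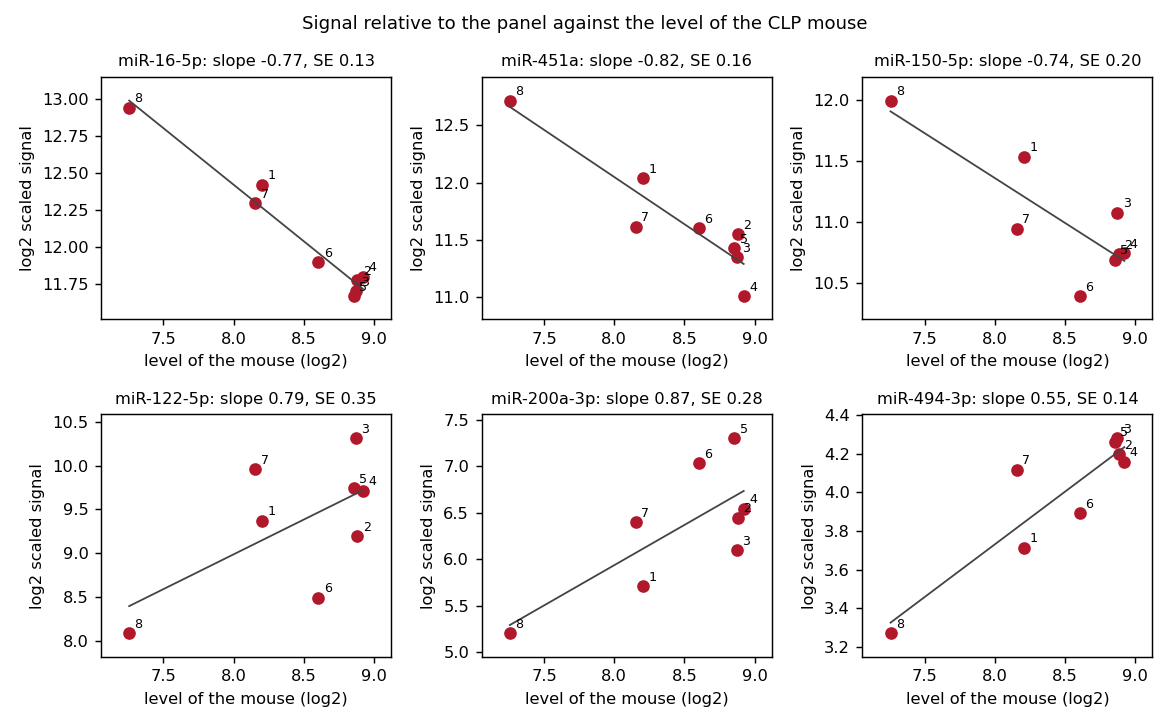
Log2 scaled signal against the level of the mouse (log2 geometric mean raw signal) for 6 miRNAs in 8 CLP mice, numbered by mouse, with the fitted limma line. miR-16-5p and miR-451a lie along lines of slope -0.77 and -0.82, and mouse 8 sits alone at the left of each panel.

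Covariation was measured as Pearson's r of log2 scaled signal over the 8 CLP mice for all 2080 pairs of the 65 probes. Of these, 0 pairs passed Benjamini-Hochberg adjustment of the exact permutation test (0%), and the smallest adjusted p was 0.0516. By Spearman's rho the count was also 0. An unadjusted exact permutation p under 0.05 was found for 318 pairs (15.3%), of which 154 were positive (7.4%) and 164 negative (7.88%), and for 205 pairs (9.86%) without mouse 8. By Spearman's rho 211 pairs (10.1%) had one. These pairs share mice and probes and are not independent, so single pairs below are described by size and none is called. Because values are relative to the panel, positive and negative r are nearly balanced by construction (median r 0.01, 1055 of 2080 above 0).

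Lymphocyte miR-150-5p and miR-342-3p and endothelial miR-126-3p had their lowest r within the lists with epithelial miRNAs, but the lists as a whole were mixed. Over 20 pairs of lymphocyte and epithelial probes the median r was -0.17, with 7 above 0 and 5 negative pairs at an unadjusted exact permutation p under 0.05 (25%, against 15.3% of all pairs). Over 10 pairs of endothelial and epithelial probes the median was -0.42, with 2 above 0 and 1 negative pair at that p (10%). The lowest r between lists was that of miR-150-5p and miR-200a-3p, with r = -0.930 (exact permutation p = 0.000719, adjusted 0.122; rho = -0.95, exact permutation p = 0.00114). The scaled signal of miR-150-5p was 1345 units in mouse 6, a median of 1841 and 4079 units in mouse 8, the mouse in which miR-200a-3p was lowest. The r was -0.869 without mouse 8, -0.842 given level and -0.766 without the 2 mice farthest from the median of miR-150-5p. miR-126-3p and miR-200a-3p had r = -0.891 (exact permutation p = 0.00397, adjusted 0.161; rho = -0.74, exact permutation p = 0.0458), or -0.819 without mouse 8. miR-342-3p, which is high in lymphocytes, was also negative with miR-203a-3p (r = -0.873), miR-205-5p (-0.827) and miR-200a-3p (-0.816). miR-130a-3p, on the panel without a list, sided with miR-200a-3p of the epithelial list. Its r was 0.855 with miR-200a-3p, -0.906 with miR-150-5p and -0.793 with miR-126-3p. miR-200a-3p also had r = 0.739 with hypoxia-induced miR-210-3p. On unscaled signal, where mice of more signal have more of nearly every miRNA, miR-150-5p and miR-200a-3p had r = 0.13.

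Lymphocyte miR-150-5p and endothelial miR-126-3p varied together. Their pair had r = 0.886 (exact permutation p = 0.00665, adjusted 0.188; rho = 0.74, exact permutation p = 0.0458), 0.818 without mouse 8 and 0.402 without mice 1 and 8. Mice 1 and 8 held the 2 highest values of both, 2965 and 4079 units of miR-150-5p and 1640 and 1672 units of miR-126-3p, against at most 2158 and 1036 units in the other 6. miR-126-3p was closest to miR-15b-5p (r = 0.915, exact permutation p = 0.00067, adjusted 0.122; rho = 0.91, exact permutation p = 0.00456), which kept 0.925 without mice 1 and 8. miR-342-3p had r = 0.802 with miR-126-3p and 0.780 with miR-150-5p, and its highest r within the lists was with miR-92a-3p of the erythroid list (0.904). miR-15a-5p, of the same seed as miR-15b-5p, had r = 0.883 with miR-150-5p and 0.857 with miR-126-3p. miR-221-3p, the other endothelial probe, had r = 0.198 with miR-126-3p (-0.29 with the authors' values). miR-181a-5p of the lymphocyte list, which tunes T cell receptor signalling, was at 266 to 413 units and had r = 0.019 with miR-150-5p (0.398 without mouse 8). Over all 22 pairs of blood-cell and endothelial probes the median r was 0.45, and 4 positive and 0 negative pairs had an unadjusted exact permutation p under 0.05 (18.2%). That share was near the 15.3% of all pairs.

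Among the blood-cell miRNAs themselves the median r was 0.30 over 55 pairs, with 11 positive and 0 negative pairs at an unadjusted exact permutation p under 0.05 (20%, against 15.3% of all pairs), and 0.16 without mouse 8. The erythroid pair miR-451a and miR-16-5p had r = 0.907 (exact permutation p = 0.00278, adjusted 0.161; rho = 0.83, exact permutation p = 0.0154) and 0.737 without mouse 8. Given the level of the mouse it was -0.04, so this r moved with level. miR-16-5p and miR-486-5p had r = 0.906, or 0.739 given level. miR-92a-3p and miR-185-5p, the other erythroid probes, had r of 0.14 and -0.60 with miR-451a, the first at -0.31 without mouse 8. The other miRNAs closest to and most opposed to miR-451a were miR-15a-5p (r = 0.880), miR-130a-3p (-0.921) and miR-494-3p (-0.918, but 0.56 with quantile normalization). miR-451a paired closely with miR-142-3p of white cells (r = 0.894, exact permutation p = 0.00665, adjusted 0.188; rho = 0.60, exact permutation p = 0.132), at 0.954 given level but 0.507 without mice 4 and 8, the mice at the extremes of both.

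Myeloid miR-223-3p had its highest r with red cell miRNAs, both smaller without mouse 8. Its r was 0.839 with miR-16-5p (exact permutation p = 0.0151, adjusted 0.238; rho = 0.71, exact permutation p = 0.0576) and 0.825 with miR-451a, against 0.493 and 0.347 without mouse 8. The r with miR-16-5p was 0.795 without mice 1 and 8, the farthest from the median of miR-16-5p, and 0.141 without mice 7 and 8, the farthest from that of miR-223-3p. Given level they were -0.35 and 0.02. Its scaled signal was 2028 to 2643 units in 7 mice and 3641 units in mouse 8. Its lowest r were with miR-30a-5p (-0.819, or 0.03 without mouse 8) and miR-129-5p (-0.812). That with miR-29a-3p was 0.763, or -0.09 without mouse 8. miR-155-5p, induced in activated macrophages and lymphocytes, had values of 11.9 to 26.9 units and its highest r within the lists with miR-142-3p (0.70).

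**Figure D4:**
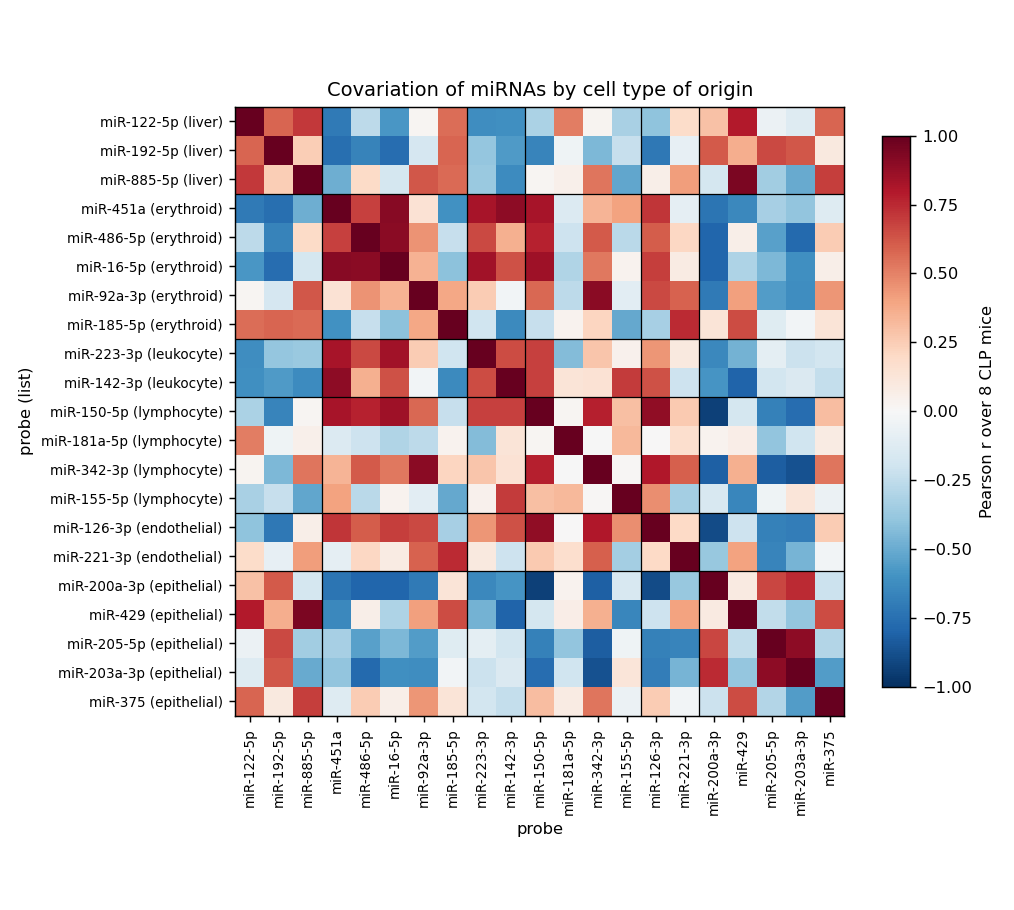
Pearson r over 8 CLP mice between the 21 tested miRNAs of the liver, erythroid, leukocyte, lymphocyte, endothelial and epithelial lists (red positive, blue negative; black lines separate lists). miR-200a-3p, miR-205-5p and miR-203a-3p are mostly blue against blood-cell miRNAs and miR-126-3p. miR-429 has r = 0.089 with miR-200a-3p and -0.208 with miR-126-3p.

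The epithelial list split into 2 sets, with r of -0.56 to 0.089 between them. miR-205-5p and miR-203a-3p had r = 0.898 (exact permutation p = 0.0035, adjusted 0.161; rho = 0.88, exact permutation p = 0.00724), and 0.887 without mouse 8. It was 0.823 without mice 2 and 6, the 2 farthest from the median of miR-203a-3p. miR-200a-3p had r = 0.746 with miR-203a-3p and 0.665 with miR-205-5p. In contrast, miR-429, transcribed from the same cluster as miR-200a-3p, had r = 0.089 with it (exact permutation p = 0.83), -0.413 without mouse 8 and -0.70 with quantile normalization. miR-429 and miR-375, a miRNA of neuroendocrine and gut epithelial cells, had r = 0.656. Both are dim, and the scaled signal of miR-429 was 3.32 to 10.5 units, against a floor of 3.09. Over the 55 pairs of blood-cell and epithelial probes the median r was -0.22, with 0 positive and 11 negative pairs at an unadjusted exact permutation p under 0.05 (20%, against 15.3% of all pairs).

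The 3 probes of the liver list had positive r with one another, all smaller without mouse 8. miR-122-5p had r = 0.582 with miR-192-5p of liver and gut (exact permutation p = 0.131) and 0.705 with miR-885-5p (exact permutation p = 0.0537), and 0.359 and 0.634 without mouse 8. miR-192-5p and miR-885-5p had r = 0.243. The values of miR-192-5p were 109 to 212 units and those of miR-885-5p 23.7 to 52.1 units. miR-885-5p was dim, with a mean raw signal of 49.5 units. Of the 3 probes, only miR-192-5p was among the 54 with a mature mouse sequence available. Whether the signal of miR-885-5p came from mouse liver was not tested. Between miR-122-5p and miR-451a r was -0.709 (exact permutation p = 0.0475, adjusted 0.324; rho = -0.55, exact permutation p = 0.171), and -0.347 without mouse 8. Over the 33 pairs of blood-cell and liver probes the median r was -0.31, and -0.03 without mouse 8. Of them, 3 negative pairs had an unadjusted exact permutation p under 0.05 (9.09%, against 15.3% of all pairs).

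The closest partners of miR-122-5p were miR-431-3p (r = 0.848, exact permutation p = 0.00675, adjusted 0.188; rho = 0.81, exact permutation p = 0.0218), miR-494-3p (0.808) and miR-429 (0.796), and all 3 of these are dim. Without mice 6 and 8, its 2 lowest, these r were 0.378, 0.470 and 0.489. With quantile normalization the r of miR-122-5p with miR-429 was -0.39. Its most negative partners were miR-23a-3p (-0.769) and let-7g-5p (-0.712).

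**Figure D5:**
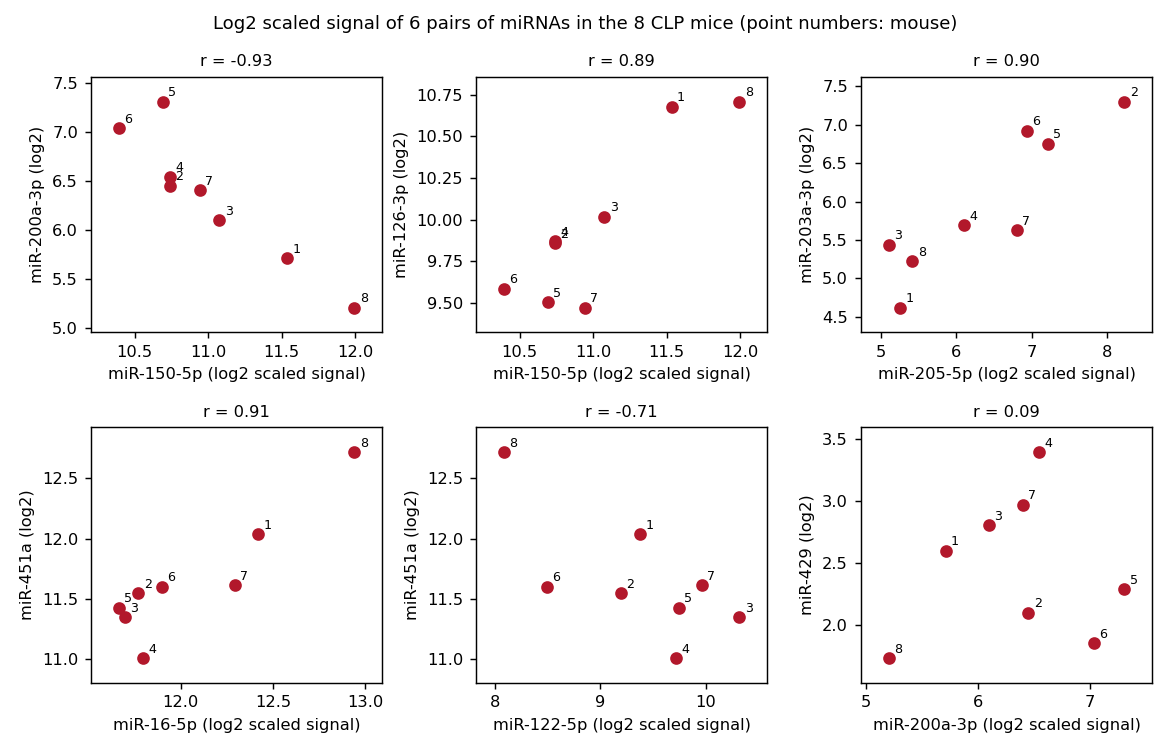
Log2 scaled signal of 6 pairs of miRNAs in the 8 CLP mice, 1 point per mouse with its number, and Pearson r above each panel. miR-200a-3p is lower in mice with more miR-150-5p (r = -0.93), miR-205-5p and miR-203a-3p lie along a rising line (0.90), mouse 8 is at a corner of the miR-16-5p and miR-451a panel, and miR-200a-3p and miR-429 show no line (0.09).

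Over the whole panel, the strongest pairs were largely among dim probes. The 8 highest r were miR-339-5p with miR-431-3p (0.953), miR-20b-5p with miR-320d (0.951), miR-339-5p with miR-885-5p (0.950), miR-125a-5p with miR-885-5p (0.950), miR-339-5p with miR-429 (0.947, but -0.55 with quantile normalization), miR-16-2-3p with miR-339-5p (0.946) and with miR-885-5p (0.941), and miR-22-3p with miR-320a (0.941). Of these, 6 were between probes with mean raw signals under 50 units. The limit of 50 units was chosen after the values were seen. Over the 78 pairs of the 13 probes under it the median r was 0.58, with 27 positive and 0 negative pairs at an unadjusted exact permutation p under 0.05 (34.6%), and 0.02 over the 1326 pairs of brighter probes (14%). The part of low signal in these r was not tested.

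The other 2 of the 8 were between brighter probes. miR-22-3p and miR-320a had 1741 to 2972 and 564 to 996 scaled units. Their r was 0.941 (exact permutation p = 0.000967, adjusted 0.122; rho = 0.91, exact permutation p = 0.00456), 0.971 without mouse 8, 0.990 given level and 0.809 without mice 2 and 7. Both were lowest in mouse 2 and highest in mouse 7. For miR-20b-5p with miR-320d r was 0.947 without mouse 8 and 0.821 without mice 4 and 7, the 2 farthest from the median of miR-20b-5p.

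The 8 lowest r were miR-320d with miR-429 (-0.957), let-7g-5p with miR-140-3p (-0.949), let-7i-5p with miR-203a-3p (-0.943), miR-20b-5p with miR-744-5p (-0.937), miR-142-3p with miR-210-3p (-0.933) and with miR-34a-5p (-0.932), miR-150-5p with miR-200a-3p (-0.930) and let-7b-5p with miR-132-3p (-0.930). The pair of miR-320d and miR-429 came close to the threshold (exact permutation p = 4.96e-05, adjusted 0.0516; rho = -0.98, exact permutation p = 0.000397), and r = -0.962 without mouse 8, but 0.10 with quantile normalization. Outside these 8, miR-15a-5p with dim miR-196a-5p came equally close (r = -0.925, exact permutation p = 2.48e-05, adjusted 0.0516). Its rho was -1 (exact permutation p = 4.96e-05), and its r was -0.858 without mouse 8. miR-34a-5p is induced by p53. miR-210-3p and miR-34a-5p had 33.4 to 93.6 and 35.5 to 90.7 units, and the mouse lowest in both, mouse 8, was the highest in miR-142-3p.

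With the level of the mouse removed from every probe, 6 pairs (0.288%) passed adjustment by an approximate permutation of the residuals. These were miR-22-3p with miR-320a, miR-339-5p with miR-885-5p, miR-429 with miR-431-3p, and, negative, miR-20b-5p with miR-744-5p and miR-320d with miR-429 and with miR-431-3p. Before removal of level, miR-429 with miR-431-3p was -0.15 with quantile normalization. The probe with most partners at an unadjusted exact permutation p under 0.05 was the p53 target miR-34a-5p (11 positive and 14 negative), followed by miR-142-3p (9 and 13). let-7d-5p and miR-26a-5p had 0.

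miRNAs that share a seed mostly varied together. Of 23 same-seed pairs 20 had r above 0, and the median was 0.58, with 7 positive and 0 negative pairs at an unadjusted exact permutation p under 0.05 (30.4%, against 15.3% of all pairs). let-7b-5p and let-7e-5p, which lie on chromosomes 15 and 17 and differ at 3 positions, had r = 0.931 (exact permutation p = 0.00131, adjusted 0.122; rho = 0.93, exact permutation p = 0.00223). miR-17-5p had r = 0.916 with miR-20b-5p on chromosome X and 0.865 with miR-20a-5p of its own cluster, each 2 positions apart. The first had rho = 0.50 (exact permutation p = 0.216) and r = 0.328 without mice 4 and 7. let-7i-5p stood outside its family, with r between -0.14 and 0.27 to the other 4. The same-seed r of miR-20b-5p and miR-93-5p was -0.09, and 0.31 without mouse 4. Whether probes for such close sequences bind each other's miRNAs was not tested. Over 7 pairs of 1 cluster with different seeds the median r was -0.09 and 0 had an unadjusted exact permutation p under 0.05, with let-7e-5p and miR-125a-5p at -0.684, miR-23a-3p and miR-24-3p at -0.429 (0.20 with median scaling), and miR-200a-3p and miR-429 at 0.089.

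Variation was concentrated on a few axes. The first principal component of log2 scaled signal held 44.95% of the variance among CLP mice, the second 29.0% and the third 8.67%. The first set miR-142-3p, miR-20b-5p and miR-451a against miR-431-3p, miR-129-5p, miR-122-5p and miR-429, and its ends were mouse 8 (score 4.66) and mouse 4 (-3.70). Its r with level was -0.718 (exact permutation p = 0.0593, adjusted over 2 components 0.119; rho = -0.57, exact permutation p = 0.151), -0.205 without mouse 8 and -0.632 without mice 7 and 8, the 2 farthest from the median level. The second set miR-205-5p, miR-203a-3p, miR-422a and miR-200a-3p against miR-342-3p, miR-150-5p and miR-126-3p. Mice 6, 2 and 5 (scores of 2.58, 2.31 and 1.95) lay at the end of miR-205-5p and miR-203a-3p, and mice 1 and 3 (-2.33 and -1.67) at the other, toward which epithelial miR-429 and miR-375 also lay (loadings of -0.31 and -0.18). Its r with level was 0.349 (exact permutation p = 0.422, adjusted 0.422; rho = 0.05, exact permutation p = 0.935).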

How the data were processed

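The authors deposited a raw table of fluorescence intensity (68 probes, 13 samples, linear scale). Their second table, also intensity, proved to be the raw table with each sample multiplied by a constant (0.450 to 4.31). Per the labels' protocols, adapters were ligated to the hybridized miRNAs, which were then released and amplified with a biotin-carrying primer. Scanner, background subtraction and the origin of the constants were steps not given in the sources used here. Only the number of mice gauges the precision. An empty cell in a sham column was left empty.

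Each mouse was divided by its geometric mean over the 60 probes above 0 in all 13 samples, then brought back to the average level. A floor was set at percentile 5 of the positive scaled values before log2 was taken. Probes above the floor in at least 5 of 8 CLP mice were tested.

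Pearson's r and Spearman's rho used all 40320 orderings of the mice (two-sided, smallest p 2.48e-05), with Benjamini-Hochberg adjustment over 2080 pairs. For r given level, residuals on level were permuted. Slopes used limma 3.58.1 in R 4.3.3 (lmFit, eBayes). Other steps ran in Python 3.11.15 (scipy 1.17.1, numpy 2.4.6, pandas 2.3.3, with figures by matplotlib 3.10.9). Both tests were checked on simulated data. Alternatives were 6 other scalings, no floor, all probes, bright probes, rank correlation, other measures of level, and each CLP mouse left out.

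Named miRNAs were the 10 of largest share, the 8 of largest and of smallest SD, tested list members, the 3 closest and 2 most opposed partners of 6 anchors, the 8 highest and 8 lowest r, the 5 steepest slopes each way and up to 6 same-seed or same-cluster pairs. Others, such as miR-140-3p and miR-181b-5p as comparisons for brightness, and further seed or cluster pairs and list pairs, were named after their values were seen. So was the pair of miR-15a-5p and miR-196a-5p, for its adjusted p. Members, lists and tests were chosen with earlier results of these data known. Of the origin lists, the 3 liver, 5 erythroid, 2 leukocyte, 4 lymphocyte, 2 endothelial and 5 epithelial probes on the panel all passed the filter. Housing, bleeding and assay plates are not stated, and the p-values therefore cover the spread of these samples and nothing more.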

Additional observations from a re-analysis of the deposited data

Results flagged for a closer look

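By Dixon's criterion, 4 of 69 measures had 1 CLP mouse far from the other 7, and chance flags about 1 in 20 such groups. The log2 level of CLP mouse 8 was 7.26, and the next lowest was 8.15. The log2 scaled signal of miR-223-3p was 11.83 in CLP mouse 8, and the next highest was 11.37. For miR-30a-5p it was 5.06 in CLP mouse 8, and the next lowest was 5.76. For miR-20a-5p it was 9.51 in CLP mouse 7, and the next lowest was 9.83.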

How the results depend on the processing

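No paired analysis was possible because the results concern 1 group and no test compares CLP with sham mice. Pairs past adjustment numbered 0 in the analysis as reported, 14 with median scaling, 1119 without scaling and 6 given level, and 0 under the other alternatives run. Pairs at an unadjusted p under 0.05 numbered 318, against 190 with quantile normalization, 1339 without scaling, 211 by Spearman's rho and 205 to 322 with 1 mouse left out (205 without mouse 8). Probes that fell with level numbered 2, against 0 with median scaling and with quantile normalization, 1 with the authors' values and 0 to 2 with 1 mouse left out (0 without mouse 8). Those that rose numbered 0, against 6 with the authors' values, 1 with percentile 75 scaling and 0 to 1 with 1 mouse left out (1 without mouse 3 or mouse 7). Both counts with the authors' values set their exchanged columns of CLP mice 6 and 7 against the raw table's levels. They do not show the change of scaling alone. The median SD of 0.36 was 0.46 with median scaling and 0.66 without scaling. The first component held 75.01% of the variance without scaling, and the brightest 10 probes held 42.6% once miR-16-5p and miR-451a were taken out of the total. Of 1542 alternative values of 83 named pairs and slopes, 52 changed sign, and all are values of r.

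Without scaling these were miR-451a with miR-122-5p (0.20), miR-130a-3p (0.28), miR-185-5p (0.31) and miR-494-3p (0.39), miR-150-5p with miR-200a-3p (0.13) and miR-130a-3p (0.27), miR-126-3p with miR-200a-3p (0.27) and miR-130a-3p (0.42), miR-342-3p with miR-205-5p (0.20), miR-203a-3p (0.30) and miR-200a-3p (0.51), miR-320d with miR-429 (0.18) and miR-431-3p (0.31), miR-122-5p with let-7g-5p (0.64) and miR-23a-3p (0.67), miR-223-3p with miR-129-5p (0.75) and miR-30a-5p (0.88), let-7e-5p with miR-125a-5p (0.41), let-7b-5p with miR-132-3p (0.60), let-7i-5p with miR-203a-3p (0.64), let-7g-5p with miR-140-3p (0.73), miR-20b-5p with miR-93-5p (0.46) and miR-23a-3p with miR-24-3p (0.89). With quantile normalization they were miR-451a with miR-486-5p (-0.44), miR-92a-3p (-0.65) and miR-494-3p (0.56), miR-192-5p with miR-885-5p (-0.16), and miR-429 with miR-885-5p (-0.027), miR-431-3p (-0.15), miR-122-5p (-0.39), miR-339-5p (-0.55), miR-200a-3p (-0.70) and miR-320d (0.10). Given level they were miR-451a with miR-16-5p (-0.038), miR-92a-3p (-0.22) and miR-486-5p (-0.50), miR-223-3p with miR-16-5p (-0.35) and miR-200a-3p with miR-429 (-0.34).

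miR-451a with miR-92a-3p was -0.11 with percentile 75 scaling, -0.18 with the authors' values, -0.024 by Spearman's rho and -0.31 to 0.63 with 1 mouse left out. miR-126-3p with miR-221-3p was -0.19 with percentile 75 scaling and -0.29 with the authors' values. With the geometric mean of all probes above 0 in CLP mice, miR-200a-3p with miR-429 was -0.025 and miR-20b-5p with miR-93-5p 0.21, and these ran from -0.41 to 0.33 and from -0.78 to 0.31 with 1 mouse left out. So left out, miR-223-3p ran from -0.89 to 0.026 with miR-30a-5p and from -0.090 to 0.85 with miR-29a-3p. miR-23a-3p with miR-24-3p was 0.20 with median scaling. Without scaling the mice keep their differences in level, and quantile normalization gives the brightest probe, miR-16-5p, 1 value in every mouse, so its r and slope have none there. The cause of the other changes was not tested. Low signal limits miR-429, miR-431-3p and miR-129-5p, whose lowest values lie near the floor.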

Other observations

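Base composition moved with the first axis of variation. Over the 53 tested probes with a mature sequence (81.5% of those tested), the Spearman rho of GC percent with the loading on the first component was -0.39, and -0.48 over the 42 at a mean of 50 or more raw units. The median GC was 36.4% among the 10 probes of highest loading and 46.4% among the 10 of lowest loading. GC had rho of 0.00 with the between-mouse SD. Loading also moved with brightness, with rho of 0.61 between mean raw signal and loading over the 65 probes. These probes share the same 8 mice and are not independent. The part of GC content and of brightness in the covariation was not tested.

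Smooth muscle miR-145-5p, on the panel alone of its list, had scaled signals of 378 units in CLP mouse 1, a median of 914 and 1324 units in CLP mouse 7, with an SD of 0.53 in CLP mice and 0.79 in sham mice. The 2 probes of the platelet list, miR-24-3p and miR-21-5p, had a joint share of 6.10% ± 0.89 in CLP mice and 6.85% ± 1.93 in sham mice (SD, n = 8 and 5). The 5 inflammation-induced probes held 4.19% ± 0.86 in CLP mice and 3.88% ± 1.04 in sham mice, and their SDs among CLP mice were 0.32 to 0.44.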
